A study of Mus musculus with 8 samples.

Results

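The genes Col1a1, Col1a2, Col3a1, Col5a1, Fbn1, Pdgfra, Dcn, Lum, Postn and Lrrc15 are expressed by fibroblasts of the dermis. Pdgfra and Lrrc15 encode proteins of the cell surface, and the others encode proteins of the extracellular matrix. They are 10 of the 23432 genes listed in each of 8 RNA-seq libraries of mouse skin epithelium, and their rows were taken by symbol. The group was chosen by measured values of these libraries, since 1 P0.5 control library had shown higher levels of such genes than the other. The level in that library and the Kansl1 comparison at P0.5 are therefore given for the 10 genes as a description, and no test of them is read there.

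The study deleted MOF, the histone H4 lysine 16 acetyltransferase encoded by Kat8, or Kansl1, a subunit of the NSL complex that contains MOF, in skin epithelium. Poly(A) RNA was sequenced from 2 libraries per group. At E16.5 the groups were Control and MOFfl/fl/K14Cre (MOF cKO), both sorted by FACS from back skin as cells carrying the K14-H2BGFP reporter. At P0.5 they were Control and Kansl1fl/fl/K14Cre (Kansl1 cKO, in which Cre removes exon 3), both as whole epidermal sheets lifted off the dermis after dispase digestion. Controls were wildtype or heterozygous littermates, so a control may carry 1 floxed allele or Cre. Cre was driven by the Krt14 promoter, which is active in epithelial cells, so the design does not delete the gene in fibroblasts. The labels do not say whether a library came from 1 animal or several, and the p-values measure only the spread between these libraries.

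Dermal fibroblasts secrete the collagen fibrils of the skin. Type I collagen is built from α1 and α2 chains encoded by Col1a1 and Col1a2, and it forms mixed fibrils with type III collagen (Col3a1) on a core nucleated by type V collagen (Col5a1 with Col5a2). Fibrillin 1 (Fbn1) assembles into the microfibrils that carry elastin. Decorin (Dcn) and lumican (Lum) are small leucine-rich proteoglycans that bind the surface of fibrils and limit their width, and periostin (Postn) is a matricellular protein that links collagen to other matrix proteins. Pdgfra encodes the receptor of platelet-derived growth factor A, a ligand that keratinocytes make, and Lrrc15 encodes a leucine-rich repeat protein of the mesenchymal cell surface.

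Coordinates are those of the mm10 build in the GENCODE M21 annotation, in which no other counted gene overlaps any of the 10. Dcn (chr10:97479609-97518143) and Lum (chr10:97565128-97572703) are neighbours on the plus strand, with 46984 bp between the end of Dcn and the start of Lum. The others are Col1a1 (chr11:94936224-94953042), Col1a2 (chr6:4504814-4541544), Col3a1 (chr1:45311538-45349706), Col5a1 (chr2:27886425-28039514), Pdgfra (chr5:75152292-75198215) and Postn (chr3:54361109-54391037) on the plus strand, and Fbn1 (chr2:125300594-125507993) and Lrrc15 (chr16:30269302-30283256) on the minus strand.

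Promoter windows of RefSeq (GRCm38.p6) were at hand for 7 of the 10 genes. The 150 bases before the start are shown for Col3a1, Col5a1 and Postn, because these genes stand for the 3 courses that the values below took across the libraries. The windows are chr1:45311388-45311537, chr2:27886275-27886424 and chr3:54360957-54361106, all on the plus strand and outside annotated exons, written 5′ to 3′. Capitals mark the motif found in each, TATAAA or GGGCGG.
Col3a1: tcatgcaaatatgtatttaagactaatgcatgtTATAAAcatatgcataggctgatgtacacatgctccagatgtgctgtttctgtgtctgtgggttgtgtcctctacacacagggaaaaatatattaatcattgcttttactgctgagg
Col5a1: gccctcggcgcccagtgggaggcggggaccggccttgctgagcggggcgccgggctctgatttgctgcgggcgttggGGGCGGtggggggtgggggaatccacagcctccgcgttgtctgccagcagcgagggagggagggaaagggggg
Postn: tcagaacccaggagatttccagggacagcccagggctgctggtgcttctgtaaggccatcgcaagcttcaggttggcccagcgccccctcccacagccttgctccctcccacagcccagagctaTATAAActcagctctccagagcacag
The Col3a1 stretch has a GC content of 37.3% and TATAAA 117 bases before the start. The Postn stretch has a GC content of 60.0% and TATAAA 26 bases before the start, and the Col5a1 stretch has a GC content of 74.7% and GGGCGG 73 bases before the start. In a search of both strands of the 250 bases before the start, TATAAA stood in 12.4% of all 32851 windows of RefSeq and in 2 of the 8 windows of these genes, that of Col3a1 and the shown one of the 2 windows of Postn, whose other window held none of the motifs. GGGCGG stood in 32.7% of all windows and in those of Col1a2, Col5a1, Fbn1 and Lrrc15, and CCAAT in 33.8% of all windows and in that of Col1a2. Col3a1 and Postn hold TATAAA at different distances from the start, and any part of these motifs in the values below was not tested.

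Between 9108709 and 27561688 reads per library fell on genes, and 1 count stood for 0.0326 to 0.0502 CPM (counts per 1e+06, scaled with TMM factors) at E16.5 and for 0.0484 to 0.115 CPM at P0.5. The targeted genes were below both controls in each cKO library, with Kat8 at 14.4 and 14.7 CPM in E16.5 control against 12.4 and 13.9 CPM, and Kansl1 at 40.7 and 48.2 CPM in P0.5 control against 31.4 and 30.6 CPM. Neither difference passed edgeR's test, and counts of whole genes do not separate the deleted exons. The epithelial keratin gene Krt5 was between 16380 and 21610 CPM at E16.5 and between 8398 and 9251 CPM at P0.5, and it marks the labelled epithelium. The 10 fibroblast genes together took between 0.146% and 0.291% of the reads. Much of this share was that of Postn and Dcn, so it does not follow the 10 genes alike. They gave 18176 and 12412 of 38629 reads in Kansl1 cKO replicate 1, and 12200 and 9531 of 71496 in MOF cKO replicate 2. Whether the reads of the 10 genes came from fibroblasts was not tested. In bulk RNA fewer cells of a type and less RNA per cell cannot be told apart. The libraries were not matched for sex: by Xist, E16.5 control replicate 1 (1518 CPM) stood apart from the other E16.5 libraries (9.99 to 12 CPM), and P0.5 control replicate 2 (1.23 CPM) from the other P0.5 libraries (371 to 427 CPM). Both cKO groups therefore differ from 1 of their controls in sex, and genotype was balanced for sex in neither comparison. P0.5 control replicate 1 stood apart in skeletal muscle genes, with 354 summed CPM over the 12 listed against 9.25, 6.25 and 5.53 in the other P0.5 libraries.

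Levels between genes were compared as CPM per kilobase of exon. Postn and Dcn led in all 4 groups, at 84.1 and 79.3 in E16.5 control, 63.1 and 64.4 in MOF cKO, 85.9 and 63.7 in P0.5 control and 105 and 93.2 in Kansl1 cKO. Their libraries overlapped in 3 of the 4 groups, and in P0.5 control Postn lay above Dcn in both. The type I and III collagen genes followed, with Col1a1 at 31.0, 62.6, 48.6 and 13.2 CPM per kilobase in the same order of groups, Col3a1 at 24.7, 53.4, 52.7 and 15.9, and Col1a2 at 17.7, 29.4, 22.9 and 9.50. Col5a1 stood beside them at E16.5, with 33.1 in control and 34.5 in MOF cKO, and below them at P0.5, with 9.22 in control and 5.54 in Kansl1 cKO. Lum was at 2.98, 6.96, 4.40 and 1.72 CPM per kilobase and Fbn1 at 1.27, 1.18, 2.91 and 1.32. Pdgfra and Lrrc15 were the lowest, Pdgfra at 0.163, 0.559, 1.51 and 0.267 and Lrrc15 at 0.0581, 0.0705, 2.24 and 0.351. Other neighbours in this order whose libraries overlapped were Col5a1, Col1a1, Col3a1 and Col1a2 in E16.5 control, Postn, Col1a1 and Col3a1 as well as Col5a1 and Col1a2 in MOF cKO, Dcn, Col3a1 and Col1a1 as well as Lum, Fbn1, Lrrc15 and Pdgfra in P0.5 control, and Lrrc15 and Pdgfra in Kansl1 cKO.

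**Figure D1:**
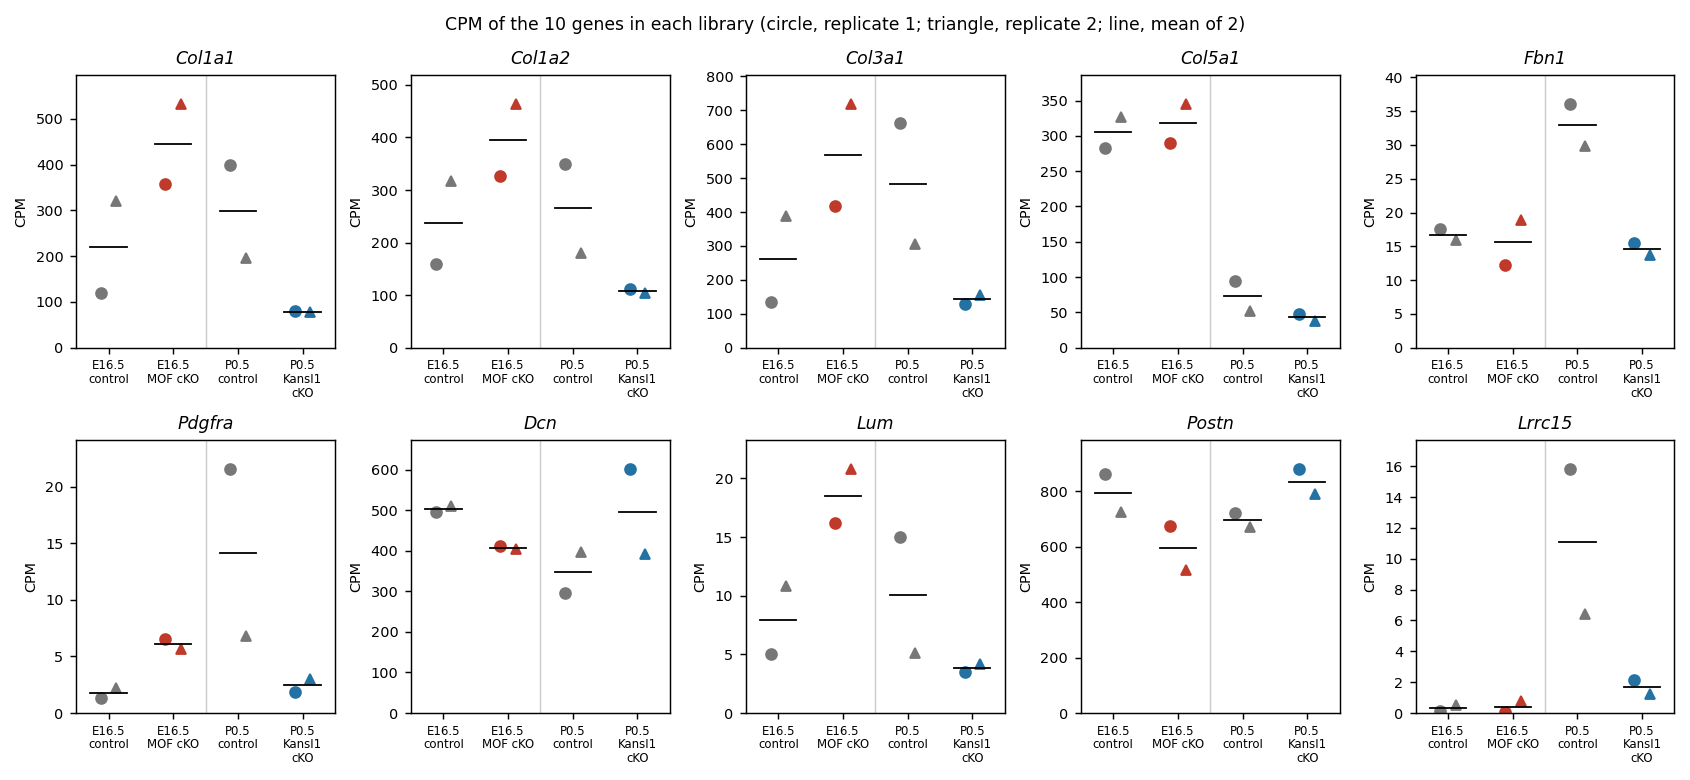
CPM of each of the 10 genes (y axis, from 0, with its own scale per gene) in the 2 libraries of each group (x axis), with a circle for replicate 1, a triangle for replicate 2 and a line for their mean, TMM-scaled within each stage. Col1a1, Col1a2, Col3a1 and Lum share a shape, high in MOF cKO and in P0.5 control replicate 1, while Dcn and Postn are lower in MOF cKO than in E16.5 control.

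Log2 changes are given below as cKO minus control, ± 1 standard error, with adjusted p-values from edgeR's fit over all genes. At E16.5 the genes of type I and III collagen had a higher CPM in both MOF cKO libraries than in both control libraries with TMM scaling, but the control libraries themselves lay far apart. With library size alone control replicate 2 lay above MOF cKO replicate 1 for all 3 genes, as it did in raw counts. Col1a1 was at 120.0 and 320.4 CPM in the control libraries and 358 and 533 CPM in MOF cKO, or 220.2 ± 142 and 445 ± 124 CPM (SD, n = 2). Control replicate 1 was the lowest library and control replicate 2 lay close below MOF cKO replicate 1. The log2 change of Col1a1 was 1.02 ± 0.408 (adjusted p = 0.0866), which did not pass the threshold of 0.01. Col3a1 took the same course, with 136 and 389 CPM in the controls and 418 and 719 CPM in MOF cKO and a log2 change of 1.11 ± 0.454 (adjusted p = 0.0901). Col1a2 was at 158 and 317 CPM in the controls and 328 and 464 CPM in MOF cKO, where control replicate 2 and MOF cKO replicate 1 were nearly level, with a log2 change of 0.74 (adjusted p = 0.0967). Without control replicate 1 the log2 changes of Col1a1, Col3a1 and Col1a2 were 0.47, 0.54 and 0.32. Without control replicate 2 they were 1.89, 2.07 and 1.32, so their size depended on which control library was used. The control left without replicate 2 differed from both MOF cKO libraries in sex, so genotype and sex cannot be told apart there.

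Col5a1, whose chain nucleates the same fibrils, did not take this course. Its levels were 282 and 327 CPM in E16.5 control and 290.0 and 345 CPM in MOF cKO, with overlapping libraries and a log2 change of 0.06 ± 0.130 (adjusted p = 0.742). The sign of that value turned with scaling by library size alone, to -0.24. Fbn1 was at 17.5 and 16.0 CPM in the controls and 12.3 and 18.9 CPM in MOF cKO, and the groups overlapped as well, with a log2 change of -0.10 ± 0.232 (adjusted p = 0.755). Neither value was larger than its standard error.

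The proteoglycan genes had log2 changes of opposite sign. Lum was at 4.99 and 10.8 CPM in E16.5 control and 16.2 and 20.8 CPM in MOF cKO, from 153, 300, 322 and 491 counts. Both MOF cKO libraries lay above both controls, and the log2 change was 1.23 ± 0.353 (adjusted p = 0.0295). Dcn, its neighbour on chromosome 10, had 495 and 509 CPM in the controls and 411 and 404 CPM in MOF cKO. Control replicate 2 held 1.03 times the level of replicate 1 and MOF cKO replicate 2 held 0.982 times, both MOF cKO libraries lay below both controls, and the log2 change was -0.30 ± 0.0966 (adjusted p = 0.0431). Postn had the same sign as Dcn, with 861 and 727 CPM in the controls, 674 and 517 CPM in MOF cKO and a log2 change of -0.42 ± 0.152 (adjusted p = 0.0656). None of the 3 genes passed the threshold of 0.01.

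The largest log2 change among the 10 genes in MOF cKO was that of Pdgfra, the PDGF receptor gene, at a low level. It had 40 and 62 counts in E16.5 control and 130 and 133 counts in MOF cKO, or 1.77 ± 0.660 and 6.08 ± 0.632 CPM (SD, n = 2). The difference was larger than the spread in either group, with a log2 change of 1.78 ± 0.413 and an adjusted p = 0.0133 in edgeR, just short of the threshold of 0.01. DESeq2 gave an adjusted p = 0.00165 for Pdgfra and 0.00228 for Lum, and both passed there. Lrrc15 had 5 and 14 counts in the controls and 1 and 18 in MOF cKO, with overlapping groups and replicates far apart. Its log2 change was 0.32 ± 1.20, smaller than its standard error.

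The study applied thresholds of an adjusted p of at most 0.01 and a fold over 1.5 in DESeq2. In edgeR, 0 of the 10 genes passed them in MOF cKO, against 19.6% of the 13956 genes tested. Over all genes 1395 were called higher and 1338 lower, or 769 and 2743 with library size alone. In alternative fits of MOF cKO the number of the 10 called higher ran from 0 to 5 and the number called lower from 0 to 2. With the replicate number as a block, 5 of the 10 were called higher (all genes 13.6%). By sign alone, 3 of the 10 were lower (all genes 50.9%). At an adjusted p of at most 0.05 with the same fold, Pdgfra and Lum passed as higher (all genes 13.9%). At an unadjusted p under 0.05, 5 of the 10 were higher (all genes 23.7%) and 2 lower (all genes 25.1%). Both MOF cKO libraries lay above both controls for 5 genes (all genes 34.9%) and below both for Dcn and Postn (all genes 37.7%). With library size alone only Pdgfra and Lum stayed above both controls (all genes 21.2%), and Fbn1, Dcn and Postn lay below both (all genes 54.1%). DESeq2 called 2 of the 10 higher (all genes 10.2%) and 0 lower (all genes 9.89%). The median log2 change was 0.53 over the 10 genes and -0.02 over all genes tested. Nothing is read from these shares about the 10 genes as a group. Scaling by library size alone lowered the median of all genes to -0.32, and the values here are relative to TMM scaling.

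At P0.5 the log2 change in Kansl1 cKO was negative for 8 of the 10 genes (all genes 48.6%) and positive for Dcn and Postn. Col1a1 was at 400.2 and 196 CPM in the control libraries and 80.2 and 77.9 CPM in Kansl1 cKO, or 298 ± 144 and 79.1 ± 1.61 CPM (SD, n = 2). The control libraries lay far apart and the Kansl1 cKO libraries close together, and both Kansl1 cKO libraries were below both controls. The log2 change was -1.91 ± 0.328, a 3.77-fold higher mean in control. Col3a1 was at 661.5 and 306 CPM in control and 128 and 157 CPM in Kansl1 cKO, a log2 change of -1.76 ± 0.357. Col1a2 was at 350.2 and 181 CPM in control and 111 and 105 CPM in Kansl1 cKO, a log2 change of -1.30 ± 0.305. For all 3 collagen genes P0.5 control replicate 1 was the highest library, and the order of the 4 libraries was the same for Col1a1 and Col1a2.

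Col5a1 was the collagen gene with the smallest difference at P0.5, with 93.8 and 52.4 CPM in control, 47.5 and 38.4 CPM in Kansl1 cKO and a log2 change of -0.76 ± 0.284. Control replicate 2 lay close above Kansl1 cKO replicate 1. Fbn1, in contrast, had close replicates, with 36.1 and 29.9 CPM in control and 15.6 and 13.7 CPM in Kansl1 cKO. Its log2 change was -1.17 ± 0.189, a 2.25-fold higher mean in control.

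Lum and Dcn again had log2 changes of opposite sign. Lum was at 15.0 and 5.11 CPM in P0.5 control and 3.49 and 4.19 CPM in Kansl1 cKO, a log2 change of -1.37 ± 0.507, where control replicate 2 lay near the Kansl1 cKO libraries. Dcn was at 297 and 397 CPM in control and 601 and 392 CPM in Kansl1 cKO, a log2 change of 0.52 ± 0.257. The groups overlapped, since control replicate 2 and Kansl1 cKO replicate 2 were nearly equal. Postn was at 724 and 672 CPM in control and 880.4 and 790.5 CPM in Kansl1 cKO, both above the controls, a log2 change of 0.26 ± 0.165.

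The surface genes had the largest differences at P0.5. Pdgfra had 188 and 105 counts in the controls and 39 and 38 in Kansl1 cKO, or 21.5 and 6.79 against 1.89 and 3.0 CPM. Both Kansl1 cKO libraries were below both controls, by a log2 change of -2.53 ± 0.578. Lrrc15 had 138 and 99 counts in the controls and 44 and 16 in Kansl1 cKO, or 15.8 and 6.40 against 2.13 and 1.26 CPM, a log2 change of -2.65 ± 0.517. In both genes P0.5 control replicate 1 was the highest of the 4 libraries by more than 2-fold.

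**Figure D2:**
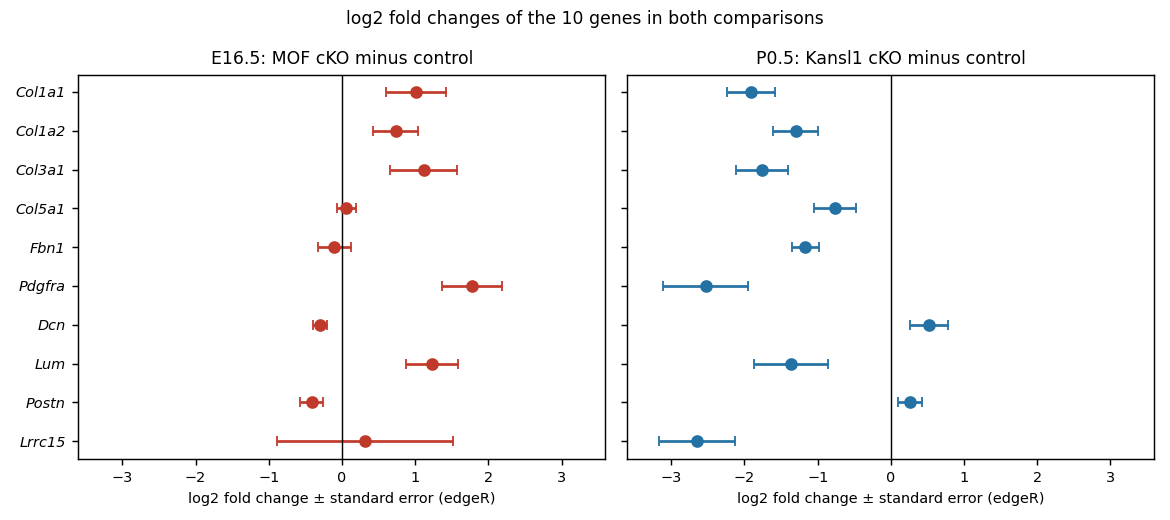
log2 change (x axis) of the 10 genes (y axis) from edgeR, with bars of 1 standard error, for MOF cKO against control at E16.5 (left) and Kansl1 cKO against control at P0.5 (right). Dcn and Postn lie left of 0 in MOF cKO and right of 0 in Kansl1 cKO, and Col1a1, Col1a2, Col3a1, Pdgfra and Lum lie on the opposite sides.

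Both Kansl1 cKO libraries lay below both controls for 8 of the 10 genes (all genes 22.7%) and above both for Postn (all genes 26.0%). The median log2 change of the 10 genes was -1.33, and that of the 13031 genes tested was 0.01. Under edgeR no gene of any kind passed the thresholds above (0.0% of all genes). Over all genes, 1077 (8.26%) were lower and 968 (7.43%) higher at an unadjusted p under 0.05 in edgeR. DESeq2, the test that the study used, called 55 lower (0.317%) and 35 higher (0.202%). Since the 10 genes were proposed with these libraries in view, nothing is read from how many of them are lower.

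P0.5 control replicate 1 held more of 9 of the 10 genes than replicate 2, though not by 1 common factor. With library size alone it held more of 8, since Postn was then at 79.7 and 83.4 CPM per kilobase in replicates 1 and 2. The ratio of replicate 1 to replicate 2 in CPM was 2.04 for Col1a1 (95% exact counting interval 1.94 to 2.14), 1.94 for Col1a2 (1.84 to 2.04) and 2.16 for Col3a1 (2.08 to 2.25). Lum had a ratio of 2.94 (2.21 to 3.94) and Pdgfra one of 3.17 (2.49 to 4.07), both above the collagen genes. Col5a1 was at 1.79, Lrrc15 at 2.47, Fbn1 at 1.21 (1.04 to 1.40) and Postn at 1.08 (1.04 to 1.11). Dcn went the other way, with a ratio of 0.749 (0.715 to 0.784). The intervals cover counting error only. Among the 13031 genes tested the median absolute log2 ratio between these libraries was 0.26, and 3.59% of genes were at least as far apart as Col1a1, 0.836% as far as Pdgfra and 77.5% as far as Postn.

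Skeletal muscle genes were higher by a larger factor in the same library. Acta1, the actin of skeletal muscle, was at 121 CPM in P0.5 control replicate 1 and at most 1.49 CPM in every other library of that stage, and Myh8, a perinatal myosin, was at 54.3 CPM against 0.194 to 0.388 CPM. Their part in the differences of the fibroblast genes was not tested. Without P0.5 control replicate 1 the log2 changes in Kansl1 cKO were -1.31 for Col1a1, -1.10 for Col3a1, -0.75 for Col1a2, -0.28 for Col5a1, -1.03 for Fbn1, -1.50 for Pdgfra, -0.42 for Lum and -1.87 for Lrrc15. All 8 kept their direction, and Dcn (0.33) and Postn (0.32) also did. In that fit the control left, replicate 2, differed from both Kansl1 cKO libraries in sex, so genotype and sex cannot be told apart.

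The E16.5 controls also differed from each other in collagen I and III genes. Control replicate 2 held 2.67 times the Col1a1 of replicate 1 (2.57 to 2.78), 2.0 times the Col1a2, 2.87 times the Col3a1 (2.77 to 2.97) and 2.17 times the Lum (1.78 to 2.65). Only 0.795% of the 13956 genes tested were as far apart as Col1a1 and 0.645% as far as Col3a1. Col5a1 at 1.16, Fbn1 at 0.911, Dcn at 1.03 and Postn at 0.844 differed little. Replicate 2 was higher in Pdgfra too, at 1.72 (1.13 to 2.62), on few counts. The 2 control libraries of E16.5 also differed in sex, whose part in these ratios was not tested.

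The ratio of counts within a library shows which of the genes kept step with each other. Col3a1 gave between 1.13 and 2.01 reads per Col1a1 read over all 8 libraries, and Col1a2 between 0.871 and 1.38. Lum, though far lower, kept between 0.0261 and 0.0538 reads per Col1a1 read, so that its highest ratio was 2.06 times its lowest. Col5a1, in contrast, ran from 2.35 reads per Col1a1 read in E16.5 control replicate 1 to 0.234 in P0.5 control replicate 1, a range of 10 times. Dcn ran from 7.50 in Kansl1 cKO replicate 1 to 0.742 in P0.5 control replicate 1, a range of 10.1 times, and Postn from 11.0 to 0.970, a range of 11.3 times. Fbn1 had a range of 5.66 times, Pdgfra of 7.71 times and Lrrc15, on few counts, of 282 times. These ranges include that of Col1a1 itself. With all 8 libraries scaled together, Col1a1 ran from 85.1 to 491 CPM, Dcn from 317 to 661 CPM and Postn from 476 to 968 CPM. Per Col1a1 read both Dcn and Postn were lower in both MOF cKO libraries than in either E16.5 control, and higher in both Kansl1 cKO libraries than in either P0.5 control.

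**Figure D3:**
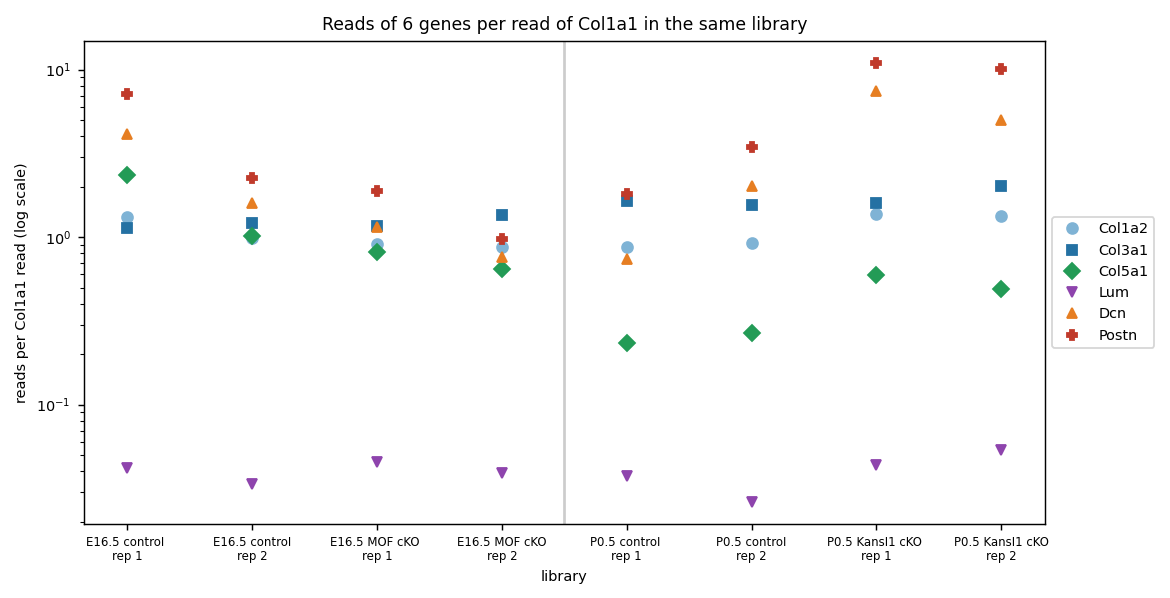
Reads of 6 genes per read of Col1a1 in the same library (y axis, log scale) in each of the 8 libraries (x axis). Col1a2, Col3a1 and Lum stay within a factor of 2.06, while Col5a1, Dcn and Postn range over a factor of 10 or more.

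A similar grouping appeared when each gene was centred within its experiment on the scale of log2(CPM + 0.5) and the root mean square difference between pairs of genes was taken over the 8 libraries. The closest pair was Col1a1 and Col3a1, at 0.123, followed by Col1a2 with Lum and Dcn with Postn, both at 0.229, and Col5a1 with Fbn1 at 0.254. Pdgfra was nearest to Col1a1, at 0.392, and Lrrc15 to Col1a1, at 0.522. Dcn stood 0.983 from Lum and 1.11 from Col1a1, and the most distant pair was Dcn and Pdgfra, at 1.29. Within a library all genes share its depth and composition, which differed between libraries, and these distances are given as a description.

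Of the control libraries, those of P0.5 held more Lrrc15, Pdgfra and Fbn1 than those of E16.5 when all 8 libraries were scaled together. Lrrc15 was 38.5-fold higher at P0.5, from 5 and 14 counts at E16.5 to 138 and 99, Pdgfra was 9.27-fold higher and Fbn1 2.29-fold higher, with no overlap between the controls. Without P0.5 control replicate 1 these folds were 22.3, 4.47 and 2.08. With any 1 of the 4 control libraries left out they ran from 22.3 to 79.3 for Lrrc15, from 4.47 to 14.1 for Pdgfra and from 2.08 to 2.50 for Fbn1, the highest for Lrrc15 being without E16.5 control replicate 2 and for Pdgfra without P0.5 control replicate 2. Col5a1 was 3.59-fold higher at E16.5 (281 ± 30.6 against 78.3 ± 31.0 CPM; SD, n = 2), and Dcn was 1.24-fold higher at E16.5. Col1a1, Col1a2, Col3a1, Lum and Postn overlapped between the stages. Stage, isolation and, by the study's account, the sequencing instrument changed together, so they cannot be told apart, and no test was made.

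The partners of the 10 genes in fibril assembly were followed in lists. For all lists in MOF cKO, the base is 1395 of 13956 genes called higher and 1338 lower, with 50.9% below 0. Of 7 other fibrillar collagen genes tested in MOF cKO, 1 was called higher and 0 lower, with a median log2 change of 0.84. Col5a2, which encodes the partner chain of Col5a1, had overlapping libraries in both comparisons, with log2 changes of -0.09 (adjusted p = 0.650) in MOF cKO and 0.13 (adjusted p = 0.734) in Kansl1 cKO. Col5a2 was at 102 and 90.5 CPM in P0.5 control and 113 and 98.1 CPM in Kansl1 cKO, so it did not follow Col1a1 there. Of 9 genes of collagen VI and fibril-associated collagens, 1 was called higher, Col12a1 with a log2 change of 0.74 (adjusted p = 0.00185), and 1 lower, Col14a1 with -0.96 (adjusted p = 0.00767). Col6a3 followed the course of Col1a1, with 28.8 and 59.1 CPM in E16.5 control, 83.5 and 88.2 CPM in MOF cKO, 139 and 38.9 CPM in P0.5 control and 18.2 and 12.5 CPM in Kansl1 cKO, but did not pass edgeR's threshold in MOF cKO (adjusted p = 0.0349) or in Kansl1 cKO (adjusted p = 0.197). DESeq2 gave it an adjusted p = 0.00047 in MOF cKO, which passed. At P0.5 the other fibrillar collagen genes had a median of -0.27 over 4 tested, and 5 of the 8 tested genes of collagen VI and fibril-associated collagens lay below both controls (all genes 22.7%), with a median of -0.995 that was -0.56 without control replicate 1.

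Genes that modify, fold and crosslink collagen were a further list. In MOF cKO 4 of 21 were called higher and 2 lower, with a median log2 change of 0.45. P4hb, the β subunit of prolyl 4-hydroxylase, had 0.61 (adjusted p = 0.00373) and Bmp1, a procollagen C-proteinase, 0.63 (adjusted p = 0.00634). Serpinh1, the collagen chaperone, was at 365 and 434 CPM in E16.5 control and 459 and 490 CPM in MOF cKO and did not pass the test. At P0.5 the same list had a median of -0.03. Of 6 other small leucine-rich proteoglycans, 1 was called higher and 1 lower in MOF cKO. The latter was Bgn (biglycan), a close relative of Dcn, which fell from 37.9 and 57.0 CPM to 15.1 and 21.4 CPM, a log2 change of -1.37 (adjusted p = 0.00474). In Kansl1 cKO Bgn was also below both controls, with a log2 change of -0.79 (adjusted p = 0.280), where Dcn was not.

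Elastic fibre and microfibril genes, the partners of Fbn1, gave 0 called higher and 4 called lower of 14 tested in MOF cKO, with a median log2 change of -0.29. Ltbp4 and Ltbp3, which bind fibrillin and latent TGF-β, had log2 changes of -0.79 (adjusted p = 0.0022) and -1.11 (adjusted p = 0.00176), while Fbn1 itself had -0.10. In Kansl1 cKO 12 of the 14 had a negative log2 change (all genes 48.6%). Their median was -0.53, and it was -0.14 without P0.5 control replicate 1. Of 11 matricellular and adhesive matrix genes, the class of Postn, 2 were called higher and 1 lower in MOF cKO. Tnc (tenascin C) rose from 100.1 and 98.5 CPM to 316 and 364 CPM, a log2 change of 1.78 (adjusted p = 0.000221), and Thbs1 fell by 0.70 on the log2 scale (adjusted p = 0.0095). Fn1 and Sparc, the most abundant of the list, did not pass, with log2 changes of -0.38 and 0.39. At P0.5 the list had a median log2 change of -0.33, which was 0.0001 without P0.5 control replicate 1.

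Regulators and surface genes of the dermal mesenchyme, the list nearest to Pdgfra and Lrrc15, had a median log2 change of 1.35 in MOF cKO, where 2 of 19 were called higher and 0 lower and 14 lay above both controls (all genes 34.9%). Vim (vimentin) was at 42.0 and 74.3 CPM in the controls and 106 and 137 CPM in MOF cKO, with an adjusted p = 0.0156 in edgeR and 1.18e-05 in DESeq2, where it passed, and Dpp4, a surface peptidase also found on other cells, rose with a log2 change of 1.52 (adjusted p = 0.00069). The list had 2 negative log2 changes in MOF cKO, among them that of Tcf4 at -0.29 (adjusted p = 0.105). In Kansl1 cKO the median of the list was -1.16, and -0.56 without P0.5 control replicate 1. With all libraries, 8 of 15 lay below both controls (all genes 22.7%) and 4 above both (all genes 26.0%). Dpp4 was among the 4, at 103 and 95.1 CPM in control and 166 and 157 CPM in Kansl1 cKO. Vim overlapped, with a log2 change of -0.08. The list summed to 589 and 464 CPM in control and 616 and 521 CPM in Kansl1 cKO. Among the ligands and receptors, Pdgfa encodes a ligand of Pdgfra. Pdgfa was at 194 and 230.2 CPM in E16.5 control and 149 and 167 CPM in MOF cKO. Its log2 change was -0.42 (adjusted p = 0.0323). Pdgfa did not differ between the P0.5 groups beyond their spread, with a log2 change of 0.03. Of 10 genes of PDGF and TGF-β signalling, 1 was called higher and 2 lower in MOF cKO. The gene called higher was Pdgfb, at 14.8 and 22.8 CPM in E16.5 control and 76.75 and 127.5 CPM in MOF cKO. Its log2 change was 2.44 (adjusted p = 0.00104). At P0.5 Pdgfc was at 44.2 and 46.9 CPM in control and 87.1 and 83.9 CPM in Kansl1 cKO. The log2 change of Pdgfc there was 0.91 (adjusted p = 0.176 in edgeR and 0.0051 in DESeq2). Of 8 collagen receptor genes, 2 were called higher, Itgb1 with a log2 change of 0.70 (adjusted p = 0.00241) and Ddr1 with 0.77 (adjusted p = 0.00549), and 1 lower, Mrc2, the receptor that takes up collagen, with -1.13 (adjusted p = 0.000896). At P0.5 the medians of these lists of signalling genes and collagen receptors were log2 changes of 0.15 and 0.24.

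**Figure D4:**
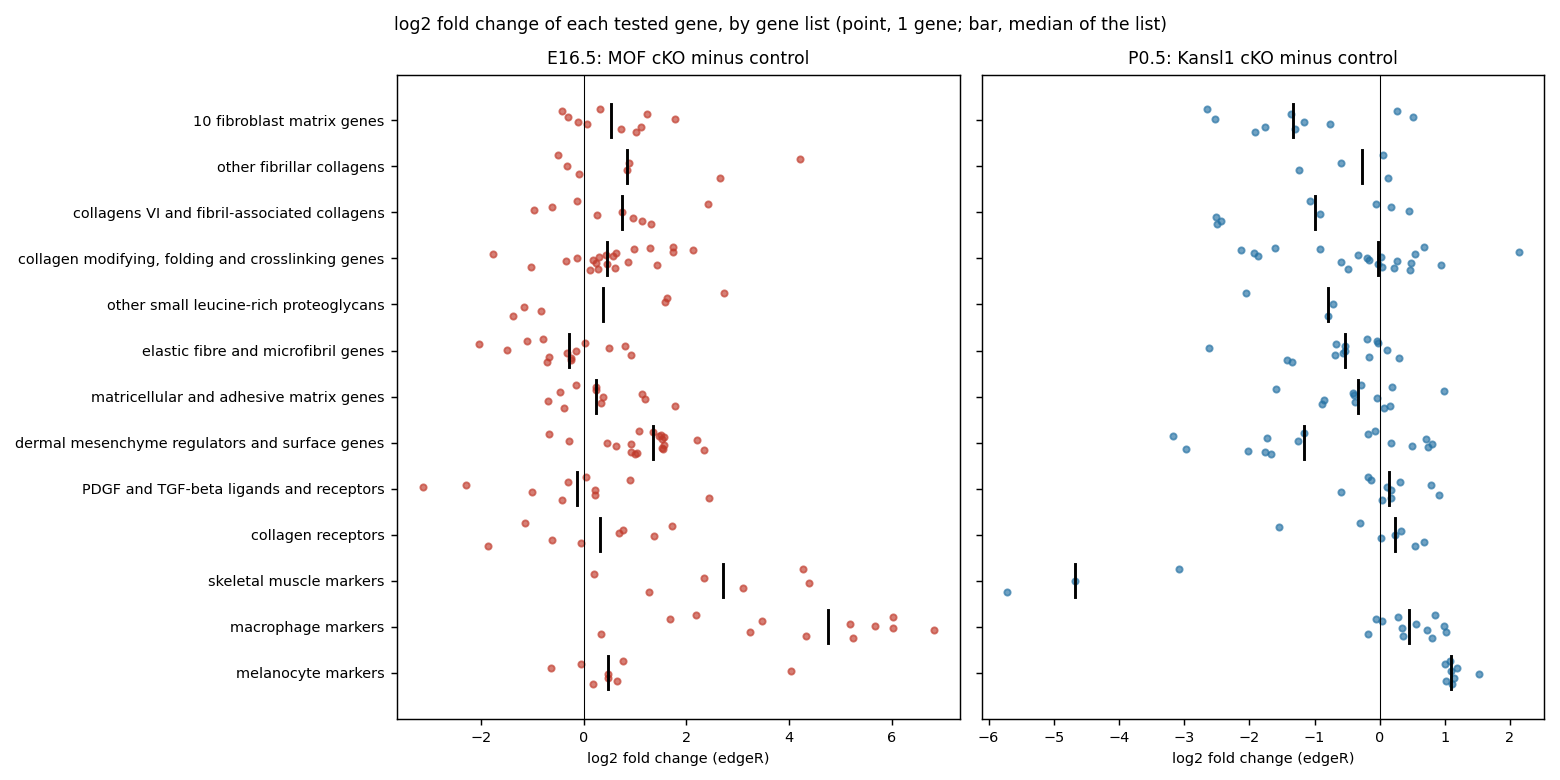
log2 change from edgeR (x axis) of each tested gene (points) and the median (bar) of the 10 genes, of the matrix and signalling lists and of 3 lists of cell type markers (y axis), for MOF cKO (left) and Kansl1 cKO (right). The medians of the 10 genes are 0.53 and -1.33, and those of the dermal mesenchyme list 1.35 and -1.16.

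Markers of other cell types also moved between these libraries. Over all genes in MOF cKO, 1395 of 13956 were called higher and 1338 lower. In MOF cKO 8 of 12 macrophage markers were called higher, with a median log2 change of 4.76 and summed levels of 21.9 and 46.9 CPM in the controls and 112 and 142 CPM in MOF cKO. C1qa was at 0.0652 and 0.181 CPM in the controls and 8.58 and 7.67 CPM in MOF cKO. Pericyte and smooth muscle markers were called higher for 4 of 8, with a median of 2.37. Their summed level of 305 and 373 CPM in the controls and 656 and 812 CPM in MOF cKO was mostly that of Mcam, Notch3 and Cspg4. Cspg4 was lower, at 97.9 and 158 against 35.7 and 63.4 CPM (adjusted p = 0.0113), and the other 8 markers, among them Acta2 and Tagln, summed to 2.38 and 5.78 CPM in the controls and 39.0 and 20.5 CPM in MOF cKO. Endothelial markers were called higher for 1 of 11, with 18.6 and 22.3 against 25.1 and 43.2 summed CPM, and 10 of the 11 had a positive log2 change. Suprabasal epidermal markers were called higher for 6 of 8. Skeletal muscle, Schwann cell, adipocyte, melanocyte and erythroid markers gave 0 calls in MOF cKO by edgeR and 2, 1, 0, 1 and 1 higher calls by DESeq2. Their log2 changes were nonetheless positive for 6 of 6 skeletal muscle markers (median 2.72), 9 of 9 Schwann cell markers (median 1.37), 3 of 3 adipocyte markers (median 1.69), 6 of 8 melanocyte markers (median 0.48) and 2 of 2 erythroid markers (median 0.45). Dermal condensate and papilla markers gave 1 lower call of 8. MOF cKO replicate 2 stood apart in skeletal muscle markers, with 27.3 summed CPM against 3.20 to 4.69 CPM in the other E16.5 libraries. Basal epidermal markers were called lower for 1 of 10 with a median of -0.08. Of these lists, 1 macrophage marker was at 0 in control replicate 2, 1 endothelial marker in MOF cKO replicate 1, and 2 and 1 pericyte markers in the controls. Of the skeletal muscle markers 1 to 5 were at 0 in an E16.5 library, of the adipocyte markers 3 to 5 of 8 and of the erythroid markers 5 to 7 of 9, and of the Schwann cell and dermal condensate markers at most 2. Their part in the values of the fibroblast genes was not tested.

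In the P0.5 comparison no marker gene passed edgeR's test. Skeletal muscle markers had a median log2 change of -4.68 over the 3 tested, which was -0.40 without P0.5 control replicate 1. The 8 pericyte and smooth muscle markers other than Mcam, Notch3 and Cspg4 also stood apart there, at 28.2 summed CPM against 2.06 to 4.07 CPM in the other P0.5 libraries. Of the skeletal muscle markers 1 to 3 of the 12 listed were at 0 in a library. All 8 melanocyte markers lay above both controls in Kansl1 cKO (all genes 26.0%), with summed levels of 515 and 588 CPM in control and 1139 and 1227 CPM in Kansl1 cKO, and DESeq2 called 4 of them. Macrophage markers were at 189 and 223 summed CPM in control and 286 and 311 CPM in Kansl1 cKO, with a median of 0.46. Dermal condensate and papilla markers had a negative log2 change in 8 of 9 (all genes 48.6%), with a median of -0.75. Their summed levels were 71.5 and 59.1 CPM in control against 44.3 and 38.3 CPM in Kansl1 cKO. Endothelial markers were at 13.2, 7.69, 7.17 and 5.30 summed CPM, Schwann cell markers at 142, 154, 201 and 200, adipocyte markers at 36.9, 28.4, 16.7 and 16.0 and erythroid markers at 117, 63.5, 97.3 and 80.1. Their part in the lower levels of the fibroblast genes in Kansl1 cKO was not tested.

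Among 12519 genes that passed the filter in both experiments, the genes outside the 10 whose course over the 8 libraries was most like the mean of the 10 were Lrrc17, Adamts2, Ntn1, Alx4, Rcn3, Serping1, Gm5617 and Nid1. Lrrc17 was the nearest, with a root mean square difference of 0.0828 on the log2 scale, from 31, 49, 42 and 58 counts at E16.5 and 42, 40, 25 and 18 at P0.5. Adamts2, which encodes a procollagen N-proteinase, came next at 0.155, and Ntn1 (netrin 1) at 0.158. Nid1, which encodes the basement membrane protein nidogen 1, was the most abundant of the 8, at 9.26, 18.4, 15.0 and 26.8 CPM at E16.5 and 85.4, 38.5, 21.7 and 20.3 CPM at P0.5, with a difference of 0.195. By that choice all 8 were lower in both Kansl1 cKO libraries than in either P0.5 control.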

How the data were processed

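Poly(A) RNA was sequenced from 8 libraries of mouse skin epithelium, 2 per group. The study's methods state HISAT2 2.1.0 and HTSeq-count for paired 150 nt reads of a directional kit, while the submitters' processing notes name TopHat2 and HTSeq with mm10. The authors deposited raw counts of reads per gene symbol, without normalization. The annotation and strand setting of the counting are not given in the sources used here. Rows without a gene name, such as unassigned reads, took 21.1% to 26.0% of reads and were dropped. Of the symbols, 98.3% were matched to GENCODE M21 for coordinates and for exon lengths, which are the union of a gene's exons.

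Each experiment was fitted alone with edgeR 4.0.16 in R 4.3.3, with limma 3.58.1 loaded. The fit used filterByExpr, TMM factors, the quasi-likelihood test and Benjamini-Hochberg adjustment over all genes tested. Calls were made where the adjusted p was at most 0.01 and the fold over 1.5, thresholds that the study applied in DESeq2. Adjusted p-values are from edgeR's test unless DESeq2 1.42.0 is named. The standard error of a log2 fold change is its size divided by the square root of F. The scripts were tested on simulated data. The 10 genes and the gene lists were chosen with earlier results of these data known. Named were the 10 genes, Kat8 and Kansl1, and the 8 genes with the nearest course. In a list, the 4 genes with the highest mean CPM were named where they bear on the 10. Xist, a check of sex, and Pdgfb were added after values were seen. Distances used log2(CPM + 0.5) and counting intervals are 95% exact intervals of a ratio of counts. The depth of 9108709 to 27561688 reads sets the precision of low genes such as Lrrc15. Alternatives were DESeq2, library size alone, RLE and upper-quartile factors, no filter beyond 1 count, the replicate number as a block, 1 fit over all libraries, an adjusted p of 0.05 and leaving out each library. A crossed pairing at P0.5 was added after seeing the data.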

Additional observations from a re-analysis of the deposited data

How the results depend on the processing

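With 2 libraries per group, each call rests on few values, and the number of the 10 genes past the thresholds changed with the fit. In MOF cKO the number called higher was 0, and it was 2 with DESeq2 and at an adjusted p of 0.05 (Pdgfra and Lum), 5 without a filter beyond 1 count (all genes 10.5%), 5 with the replicate block (all genes 13.6%), and 0 to 5 with 1 library left out, being 5 without E16.5 control replicate 2 (all genes 9.66%). In each case the 5 were Col1a1, Col1a2, Col3a1, Pdgfra and Lum. The number called lower was 0, and 2 with scaling by library size alone (Dcn and Postn; all genes 19.7%). The median log2 fold change in MOF cKO, 0.53, ran from 0.14 without E16.5 control replicate 1 to 1.32 without E16.5 control replicate 2. In Kansl1 cKO, the contrast that chose the genes, nothing is read from the number called lower. It was 0, and 6 with DESeq2 (all genes 0.317%) and 6 without a filter beyond 1 count (all genes 0.674%). It ran from 0 to 6 with 1 library left out, being 6 without Kansl1 cKO replicate 1 (all genes 0.476%) and 5 without Kansl1 cKO replicate 2 (all genes 1.45%). The median of -1.33 ran from -1.87 without P0.5 control replicate 2 to -0.89 without P0.5 control replicate 1. A fit without 1 library assumes that the lone library of a group varies like the other group. Without E16.5 control replicate 2 or P0.5 control replicate 1, the control left differs from both cKO libraries in sex. Genotype and sex cannot be told apart in those fits. In MOF cKO the sign turned for Col5a1 (0.06, to -0.24 with library size alone, -0.0059 with upper-quartile factors, and -0.0727 to 0.18 without 1 library). It also turned for Fbn1 (-0.10, and -0.45 to 0.17 without 1 library). The sign of Lrrc15 turned too (0.32, to -0.10 with the replicate block, and -2.62 to 1.31 without 1 library). The other genes kept their sign in MOF cKO. In Kansl1 cKO all 10 kept theirs with 1 library left out. The study's methods speak of pairs of samples and of littermate controls, but neither they nor the labels say that a replicate number marks a pair, and the deviations of same-numbered libraries correlated at 0.25 in the MOF experiment and -0.26 in the Kansl1 experiment. With the replicate block the medians were 0.43 and -1.23, and 0 of the 10 genes were called in Kansl1 cKO, also with the numbers crossed (median -1.21). The order of the genes by level was the same in all 4 groups with library size alone. The cause of these shifts was not tested.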
